A study of Mus musculus with 2 samples.

Results

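Osteoclast-like cells of EMT6 tumors were chosen by their measured transcripts in single-cell RNA sequencing, as cells in which Acp5 and Ctsk each made up at least 0.2% of the unique molecular identifiers (UMIs, one per captured transcript), with at least 2 UMIs of each. The rule chose 62 cells of the 21985 that passed the cell filter of at least 200 genes and under 20% mitochondrial UMIs. Of these, 41 came from the Olaparib + LLY-283 library and 21 from the Combo library. EMT6 is a mouse mammary tumor cell line, and 200000 cells were injected under the skin of BALB/c mice. Both groups were given the PRMT5 inhibitor LLY-283 at 50 mg/kg, 3 days on and 4 days off, together with the PARP inhibitor Olaparib at 50 mg/kg, and mice of the Combo group had 200 µg of an anti-PD-1 antibody in addition, given every 3 days. Each group was 1 library of tumors from 3 mice pooled, so treatment, pool and library cannot be told apart, and no untreated tumor was sequenced in this way. The dissociated tumor cells were passed through a cell sieve before they were loaded for droplet sequencing.

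Osteoclasts are the cells that resorb bone. They form when precursors of the monocyte and macrophage lineage, kept alive by macrophage colony-stimulating factor (M-CSF), receive the RANK ligand, switch on the transcription factor Nfatc1 and fuse into large cells with many nuclei. On bone they seal off a pit, pump protons into it with a vacuolar ATPase, and digest the matrix there with cathepsin K (Ctsk) and metalloproteinases. Acp5 encodes the tartrate-resistant acid phosphatase by which osteoclasts are stained. Neither gene marks them alone, because macrophages can express Acp5 and fibroblasts can express Ctsk, which is why both were required at once. The tumors grew away from the skeleton, and the name osteoclast-like refers here to transcripts only, since neither nuclei nor resorption were measured.

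The 2 rule genes lie on different chromosomes, Acp5 (ENSMUSG00000001348) at chr9:22126727-22135711 on the minus strand and Ctsk (ENSMUSG00000028111) at chr3:95499256-95509362 on the plus strand (mm10, GENCODE M21). The 250 bases before a RefSeq transcription start of each are shown with those of 2 genes described further on, the transcription factor Prdm1 and the proton pump subunit Atp6v0b, because their transcripts were high in the same cells. The stretches are, on build GRCm38.p6, chr9:22130599-22130848 on the minus strand for Acp5 (1 of its 3 starts in the table), chr3:95498960-95499209 on the plus strand for Ctsk, chr10:44458749-44458998 on the minus strand for Prdm1 and chr4:117887330-117887579 on the minus strand for Atp6v0b. Capitals mark CACATG in Acp5, whose first base lies 90 bases before the start, CACGTG in Atp6v0b, at 36 and 18 bases before the start, and TGANTCA, where N is any base, in Prdm1, at 48 bases before the start. CACGTG and CACATG are E-box letters of the kind that Mitf and its relatives can bind, and TGANTCA is the letters that AP-1 factors can bind.
Acp5: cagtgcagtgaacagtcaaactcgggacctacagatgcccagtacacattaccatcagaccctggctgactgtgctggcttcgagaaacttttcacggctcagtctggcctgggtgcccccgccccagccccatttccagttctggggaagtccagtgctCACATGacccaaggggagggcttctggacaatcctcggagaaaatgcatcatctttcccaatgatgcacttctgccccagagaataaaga
Ctsk: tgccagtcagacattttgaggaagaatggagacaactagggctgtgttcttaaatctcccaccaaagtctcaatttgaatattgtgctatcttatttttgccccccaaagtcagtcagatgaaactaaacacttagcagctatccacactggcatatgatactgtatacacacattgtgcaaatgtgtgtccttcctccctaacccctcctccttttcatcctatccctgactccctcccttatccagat
Prdm1: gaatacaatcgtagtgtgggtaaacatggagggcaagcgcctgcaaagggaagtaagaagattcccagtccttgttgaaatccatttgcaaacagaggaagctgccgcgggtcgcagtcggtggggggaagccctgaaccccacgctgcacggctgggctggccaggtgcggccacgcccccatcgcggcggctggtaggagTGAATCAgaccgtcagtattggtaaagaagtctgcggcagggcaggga
Atp6v0b: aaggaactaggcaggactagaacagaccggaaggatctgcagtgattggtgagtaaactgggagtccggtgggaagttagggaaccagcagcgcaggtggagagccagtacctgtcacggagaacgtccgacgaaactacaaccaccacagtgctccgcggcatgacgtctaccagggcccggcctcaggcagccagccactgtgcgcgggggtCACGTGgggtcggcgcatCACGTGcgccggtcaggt

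Letters were searched on both strands in windows from 250 bases before to 50 after each start. Of the 32851 windows of 27025 mouse genes, 7.81% held TGANTCA, 7.15% held CACGTG and 14.2% held CACATG, the last of which was added after windows had been seen. The shorter GGAAA, letters within the sites of NFAT factors, was in 61.3% of all windows. Only 5 of the 12 osteoclast marker genes described below had an entry in the table. Their 8 windows held CACATG in 2 and GGAAA in 7 (87.5%), and none held CACGTG or TGANTCA. Of the V0 and accessory genes of the proton pump, 10 of 12 had an entry, and 3 of their 14 windows held CACGTG (21.4%), whereas 1 of the 10 windows of the 9 V1 genes with an entry did (10%). These matches describe letters in the reference and were not linked to binding by any measurement.

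Acp5 took up between 0.242% and 3.61% of a cell's UMIs in the 41 Olaparib + LLY-283 cells, with a median of 1.07%, and between 0.217% and 3.46% in the 21 Combo cells, with a median of 1.47%. Ctsk took up 0.213% to 3.41% (median 1.03%) and 0.232% to 2.36% (median 0.95%). These values chose the cells and are given as a description. The ranges of Acp5 were alike in the 2 libraries, and that of Ctsk reached higher in Olaparib + LLY-283. The 3 members nearest the threshold had 0.213%, 0.242% and 0.253% for the lower of the 2 genes in Olaparib + LLY-283, and the 3 cells just outside had 0.198%, 0.168% and 0.166%. In Combo the 3 nearest members had 0.217%, 0.228% and 0.232%, and the nearest cells outside 0.151%, 0.148% and 0.102%. There was thus a gap below the threshold in Combo and almost none in Olaparib + LLY-283.

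**Figure D1:**
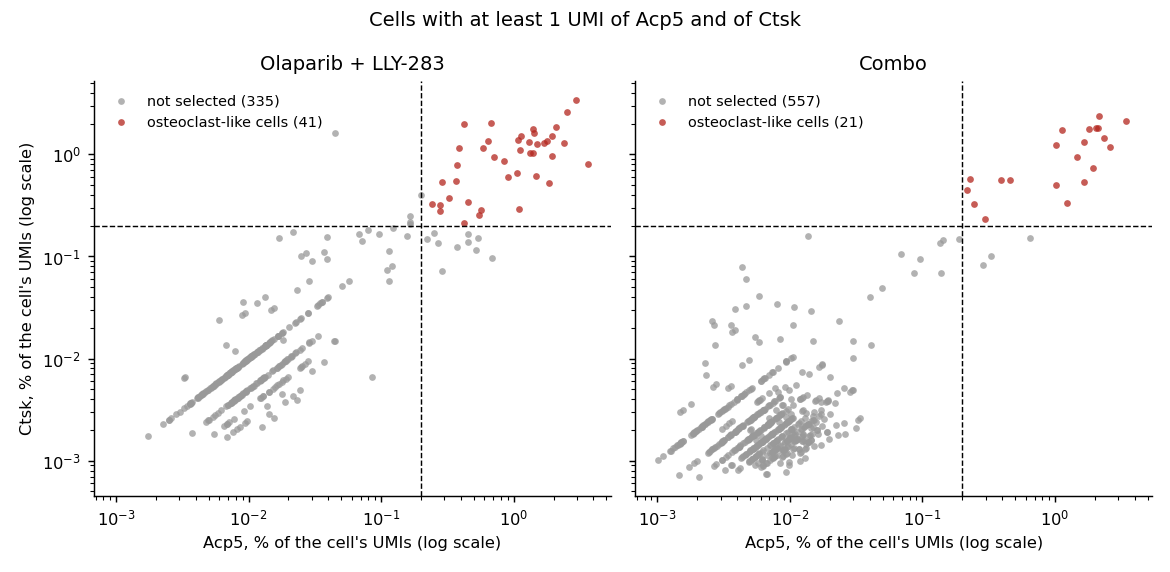
Share of each cell's UMIs from Acp5 (x axis, percent, log scale) and from Ctsk (y axis, percent, log scale) in cells with at least 1 UMI of each, by library. Red points are the 41 and 21 osteoclast-like cells, grey points the 335 and 557 other cells, and dashed lines the threshold of 0.2%; most grey points lie well below it on both axes.

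The cells were rare, at 0.256% of the Olaparib + LLY-283 cells (95% Clopper-Pearson interval 0.184 to 0.347, 41 of 16029) and 0.353% of the Combo cells (0.218 to 0.538, 21 of 5956). The intervals overlap and cover counting error only. None of the 86 and 1586 cells left out for mitochondrial UMIs met the rule, so the filter raised both shares, and that of Combo more. As a comparison population, C1q macrophages were taken as cells outside the rule with at least 0.2% of their UMIs from C1qa, C1qb and C1qc, the chains of the complement protein C1q. They numbered 630 and 343, so that osteoclast-like cells were 6.11% (4.42 to 8.20) and 5.77% (3.61 to 8.68) of both kinds combined. The 2 libraries shared 39 cell barcodes, 1 of them that of an Olaparib + LLY-283 member, and 6 and 1 of the members were called doublets, which were kept. Depth differed between the libraries. The median osteoclast-like cell had 3101 UMIs (570 to 27379) and 1360 genes in Olaparib + LLY-283 but 21784 UMIs (878 to 49555) and 4429 genes in Combo. C1q macrophages had medians of 2521 and 13569 UMIs. Summed over the cells, 179636 and 451881 UMIs stood behind the osteoclast-like values, so that 3 UMIs, taken as the floor of detection, came to 16.7 and 6.64 CPM, the count scaled to a total of 1000000 UMIs.

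Transcripts of the rule genes were found far outside the chosen cells, but thinly. At least 1 Acp5 UMI was found in 38.6% and 50.2% of all cells, and at least 1 Ctsk UMI in 4.62% and 12.2%. The osteoclast-like cells held 0.122% (Olaparib + LLY-283) and 0.28% (Combo) of all UMIs, yet 60.7% and 77.4% of the Ctsk UMIs and 16.9% and 34.4% of the Acp5 UMIs. They also held 52.3% and 53.5% of the UMIs of Mmp9, a matrix metalloproteinase, 42% and 57.8% of those of Atp6v0d2, the d subunit of the proton pump that osteoclasts use, and 72.6% and 66.4% of those of Ocstamp, a membrane protein needed for osteoclast fusion. None of these 3 genes was part of the rule. The sum of any 1 gene stands on few cells, and the part of RNA carried over between droplets was not tested.

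The label was checked against 12 osteoclast markers, the 2 rule genes among them. Genes were compared with C1q macrophages within each library as a log2 ratio of CPM, with 0.5 UMIs added to each count, and a gene was called higher or lower where it was at least 2-fold so in both libraries. Of 3005 genes with a mean level of at least 50 CPM, 229 (7.62%) were higher in osteoclast-like cells and 287 (9.55%) lower, and the median log2 ratio of all of them was 0.07 and 0.02. There is no p-value, since each group was 1 library. Of the 12 markers 9 passed the filter, and all 9 were higher, with median log2 ratios of 7.74 and 6.41 (7.33 and 6.41 with Dcstamp at its lower bound). The 2 rule genes are among these by choice. Genes raised in the chosen cells also pass the filter more easily through those cells, so the count describes the list and supports nothing beyond it.

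Mmp9 ran from 0 to 25395 CPM over the Olaparib + LLY-283 cells (median 2201, detected in 38 of 41) and from 91.7 to 30247 CPM over the Combo cells (median 5214, in 21 of 21). In summed UMIs it reached 4437 CPM (95% Poisson interval 4134 to 4756) and 5089.8 CPM (4884 to 5302), against 14.5 and 21.4 CPM in C1q macrophages. It was therefore 301 and 237 times higher, and most single cells of both libraries carried it. Atp6v0d2 stood at 557 and 648 CPM against 12.8 and 7.55 CPM, 43 and 85 times higher. It was detected in 27 of 41 and 20 of 21 cells. The fusion gene Ocstamp stood at 251 and 201 CPM, from 45 and 91 UMIs. In C1q macrophages 1 and 4 Ocstamp UMIs were counted, and the log2 ratios of 8.58 (exact interval 6.60 to 14.49) and 7.93 (6.69 to 10.00) are correspondingly wide.

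Dcstamp, which works with Ocstamp in fusion, had 20 and 42 UMIs (111 and 92.9 CPM). No Dcstamp UMI was found in the C1q macrophages of Olaparib + LLY-283, and against the floor of 3 UMIs over that population it was at least 84.2-fold higher. In Combo it was 24.9-fold higher. Nfatc1, the transcription factor that directs osteoclast formation, stood at 251 and 578 CPM against 23.4 and 29.3 CPM, with log2 ratios of 3.43 and 4.30. Ckb, the brain-type creatine kinase that osteoclasts use to supply ATP, stood at 1536 and 750.2 CPM against 182 and 272 CPM. Car2, the carbonic anhydrase that yields the protons for acid secretion, had 44 and 16 UMIs (245 and 35.4 CPM), against 3 and 8 UMIs in C1q macrophages. Its log2 ratios were 7.33 (5.89 to 9.87) and 4.54 (3.28 to 6.02).

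The other 3 markers lay below the filter on level. Oscar, an immunoglobulin-like receptor that costimulates osteoclast formation, had 11 and 33 UMIs, against 0 and 1 in C1q macrophages. Itgb3, the beta chain of the integrin by which osteoclasts hold to bone, had 16 and 27 UMIs, against 4 and 1. Calcr, the calcitonin receptor of mature osteoclasts, was at 0 UMIs in Olaparib + LLY-283 and 1 UMI in Combo. Thus 11 of the 12 markers had UMIs in both libraries, and the marker of mature cells was at or under the floor.

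**Figure D2:**
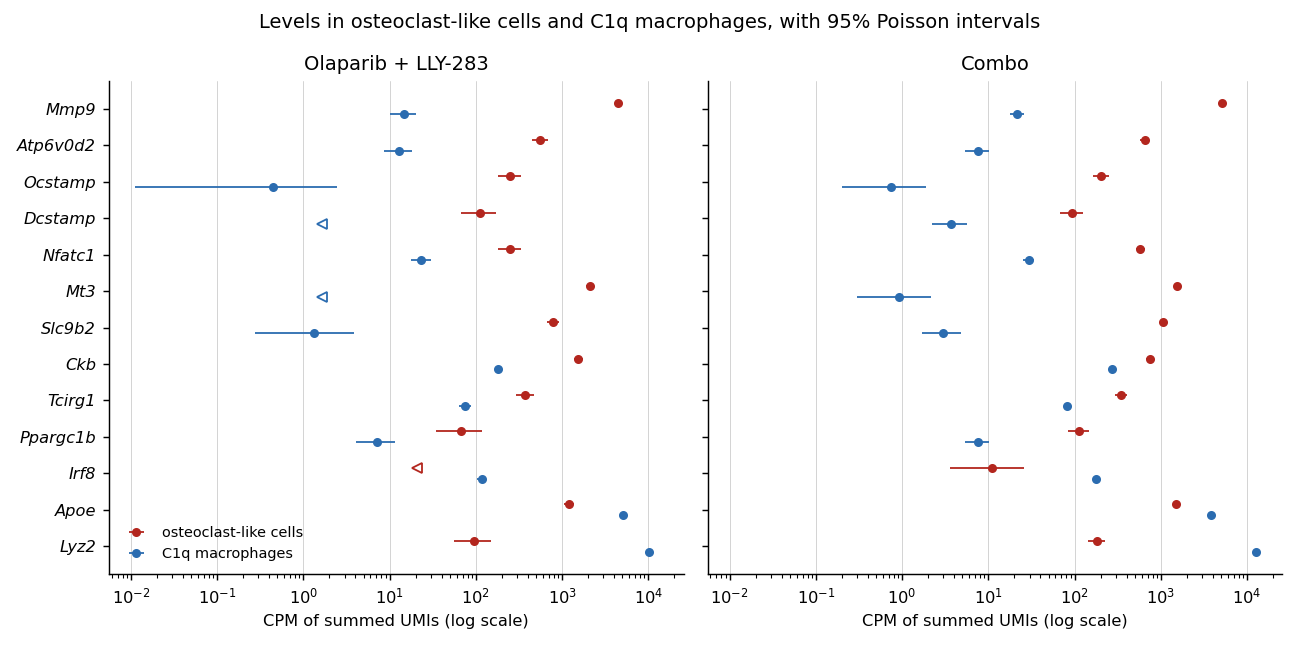
Level of 13 genes in CPM of summed UMIs (x axis, log scale) in osteoclast-like cells (red) and C1q macrophages (blue), by library. Bars are 95% Poisson intervals and open triangles the upper limit where no UMI was counted; the osteoclast genes lie to the right in red, for example Mmp9 at 4437 against 14.5 CPM, and Irf8, Apoe and Lyz2 to the right in blue.

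Single cells carried these markers together. Of the 10 markers outside the rule, a cell of the Olaparib + LLY-283 library had UMIs of 1 to 9, with a median of 3, and a cell of the deeper Combo library of 2 to 9, with a median of 7. At least 3 were found in 27 of 41 (65.9%) and 19 of 21 (90.5%) cells, as against 5 of 630 (0.794%) and 30 of 343 (8.75%) C1q macrophages. Because cells of Combo were deeper, shares were also computed for each cell thinned to 1000 UMIs, which left 35 and 19 osteoclast-like cells and 548 and 327 C1q macrophages. At that depth Mmp9 came out in 75.7% and 74.4% of osteoclast-like cells, where all UMIs gave 92.7% (80.1 to 98.5) and 100% (83.9 to 100). In C1q macrophages, 2.38% and 12.2% of cells had a Mmp9 UMI, and 1.18% and 1.87% at 1000 UMIs. For Atp6v0d2 the shares were 65.9% and 95.2% with all UMIs and 42.1% and 48.6% at 1000. For Ocstamp they were 48.8% and 76.2%, then 18.7% and 18.4%. The shares for Nfatc1 were 51.2% and 90.5%, and at 1000 UMIs 16.7% and 40.4%. In percentage points, the shares of the libraries were closer at 1000 UMIs for all 4 genes, and furthest apart for Nfatc1. As a ratio, the shares of Nfatc1 were further apart at 1000 UMIs than with all UMIs.

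Of 18 genes of fusion and adhesion, 11 passed the filter, 4 were higher than in C1q macrophages and 2 lower (median log2 ratio 0.26 and 0.48). Besides Dcstamp and Ocstamp, the higher genes were Snx10, a sorting nexin needed for resorption by osteoclasts, at 401 and 544 CPM against 60.4 and 79.6, and Itgav, the alpha chain that pairs with Itgb3, at 223 and 274 CPM against 61.2 and 79.9. The lower genes were the sheddase Adam8 (27.8 and 79.7 CPM against 327 and 320.2) and the tetraspanin Cd81 (66.8 and 44.3 CPM against 279 and 267). Cd9, another tetraspanin, stood at 429 and 385 CPM against 360 and 276 and was not called. The list thus split, with 36.4% of the 11 higher, beside 7.62% of all genes tested, and 2 of 11 lower, beside 9.55%. Dcstamp and Ocstamp are also counted among the markers above, and the median was taken over genes that went both ways.

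Of 16 genes of the RANK and M-CSF pathways, among them receptors and adaptors, 6 passed the filter against C1q macrophages. They went both ways, with 3 above 0 and 3 below 0 in both libraries (median log2 ratio -0.16 and -0.01). None was called lower and 1 was called higher (16.7%, beside 7.62% of all genes tested). This was Tnfrsf11a, which encodes RANK itself, with 22 and 71 UMIs, or 122 and 157 CPM against 39.2 and 64.3 CPM. With CPM averaged over cells it missed the call, at a log2 ratio of 0.98 in Combo. Csf1r, the M-CSF receptor, stood at 339.6 and 613 CPM against 319 and 468, and Tyrobp, the adaptor of Trem2, at 2021 and 2206 CPM against 1428 and 1659.7. Trem2 stood at 284 and 281 CPM against 414 and 492. Against all other cells of the tumor, of which C1q macrophages were 630 of 15988 and 343 of 5935, all 5 genes of the list that passed the filter were higher, beside 11.7% of the 2945 genes tested there, Csf1r with log2 ratios of 4.57 and 4.30. Of the ligands and the decoy receptor, Tnfsf11, which encodes the RANK ligand, had no UMI in the osteoclast-like cells of either library, Tnfrsf11b (osteoprotegerin) had 1 and 0, and Il34 had 1 and 4. Csf1, the gene of M-CSF, stood at 72.4 and 22.1 CPM against 77.5 and 51.9 CPM.

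Of 13 genes of bone resorption 7 passed the filter and 6 were higher, beside 7.62% of all genes tested. Of the 6, Acp5 and Ctsk were fixed by the rule, and Mmp9 and Car2 are counted among the markers above. The others were Mmp14, a membrane-bound metalloproteinase, at 379 and 361 CPM against 112 and 135, and Slc4a2, the anion exchanger that balances acid secretion, at 122 and 99.6 CPM against 23.4 and 30.6. The chloride transporter Clcn7 and its partner Ostm1 were below the filter, with 5 and 26 and with 5 and 23 UMIs.

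Most proton pump genes that passed the filter were raised. The vacuolar ATPase consists of a V1 sector, which splits ATP, and a V0 sector, which carries protons through the membrane. Of 25 genes 16 passed the filter, with median log2 ratios of 1.57 and 1.32. Of these, 13 were higher than in C1q macrophages and none was lower, beside 7.62% and 9.55% of all genes tested. Atp6v0d2 is among the 13 and also among the markers above, and it passed the filter through the osteoclast-like cells. Summed over the 25 genes, the level was 13978 and 14329 CPM in osteoclast-like cells, 4211 and 4793 CPM in C1q macrophages and 2038 and 2066 CPM in all other cells. In V1, 7 of 8 genes were higher, among them Atp6v1b2, an ATP-splitting subunit, at 651 and 819 CPM against 101 and 124, and Atp6v1g1, of the stalk, at 1458 and 1773 CPM against 342 and 347. Atp6v1h missed the call in 1 library, at 72.4 and 153 CPM against 60.4 and 65.4. The other 5 V1 genes, Atp6v1b1, Atp6v1c2, Atp6v1e2, Atp6v1g2 and Atp6v1g3, had no UMI in these cells.

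In V0, paralogs that can stand in for each other went different ways. Tcirg1, the a3 subunit that places the pump at the ruffled border of osteoclasts, stood at 373 and 347 CPM against 74.9 and 81.9 CPM. Atp6v0a1, its more widely used paralog, had 1 and 3 UMIs in osteoclast-like cells and 107 and 382 in C1q macrophages, with log2 ratios of -2.50 (-8.40 to -0.57) and -3.18 (-5.69 to -1.85). Its mean level was below the filter, so it entered no count. Of the d subunits, Atp6v0d2 stood at 557 and 648 CPM as above and Atp6v0d1 at 111 and 117 CPM. In C1q macrophages the order was the other way round, with Atp6v0d1 at 136 and 183 CPM and Atp6v0d2 at 12.8 and 7.55 CPM. A 3′ UMI counts 1 end of a transcript, so these levels need no correction for length. The c subunits followed the rest, with Atp6v0c at 4921 and 4824 CPM against 1303 and 1588, a value left uncertain by near-identical gene copies, and Atp6v0b at 1264 and 1146 CPM against 439 and 472. Atp6v0a4 had no UMI.

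Nuclear genes of oxidative phosphorylation were higher as a group. Of 75 genes 73 passed the filter. Of these, 40 were higher in both libraries and none was lower, beside 7.62% and 9.55% of all genes tested. All 73 had log2 ratios above 0 in both libraries, with medians of 1.19 and 1.11. Their sum was 53625 and 47820 CPM in osteoclast-like cells, 23422 and 22572 CPM in C1q macrophages and 26158 and 26080 CPM in all other cells. By complex, 14 of 36 genes of complex I were higher, 3 of 4 of complex II, 7 of 9 of complex III, 7 of 11 of complex IV and 9 of 13 of the ATP synthase. Uqcr10 of complex III stood at 1542 and 1441 CPM against 399 and 432, the cytochrome subunit Cyc1 at 479 and 476 CPM against 133 and 130, and Sdhb of complex II at 568 and 485 CPM against 139 and 144. Many members lay close to the 2-fold line, such as Cox8a, at 2616 and 2020.4 CPM against 1314 and 1097. Of the genes that the mitochondria encode themselves, 7 of 13 passed the filter and 1 was higher, mt-Nd5, with median log2 ratios of 0.79 and 0.68 for the list. Mitochondrial UMIs made up 1.97% and 2.07% of all UMIs, against 1.40% and 1.62% in C1q macrophages.

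Of the genes of the citrate cycle 10 of 16 were higher and none lower, beside 7.62% and 9.55% of all genes tested (median log2 ratios 1.38 and 1.17). The complex II genes Sdha, Sdhb and Sdhd are 3 of these 10 and were already counted with the respiratory chain. Mdh2, malate dehydrogenase, stood at 885 and 841 CPM against 252 and 239, and Idh3a, of isocitrate dehydrogenase, at 234 and 157 CPM against 53.8 and 49.7. Among 13 genes of mitochondrial biogenesis and iron uptake only Tfrc, the transferrin receptor, passed the filter, at 223 and 206 CPM against 12.3 and 18.4. Ppargc1b, the coactivator PGC-1β that builds mitochondria in osteoclasts, had 12 and 51 UMIs (66.8 and 113 CPM) against 7.05 and 7.55 CPM but was below the filter, and its paralog Ppargc1a had no UMI. Of the 8 genes of creatine and energy buffering, Ckb was higher, as given above, and Gatm, which makes the precursor of creatine, was lower, at 0 and 15.5 CPM against 467 and 689, or at least 28-fold lower in Olaparib + LLY-283.

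All 15 genes of glycolysis passed the filter, and none was called higher and 2 lower. Of all genes tested, 7.62% were higher and 9.55% lower, so these counts lie near the shares over all genes. The medians were -0.47 and -0.45, and 11 of the 15 were below 0 in both libraries. The lower genes were Slc2a1, the glucose transporter GLUT1, at 50.1 and 37.6 CPM against 267 and 182, and Slc16a3, which exports lactate, at 44.5 and 57.5 CPM against 170 and 204. Gapdh stood at 1937 and 1815 CPM against 2959 and 2675, and Aldoa at 1826 and 1835 CPM against 1552 and 1396.

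**Figure D3:**
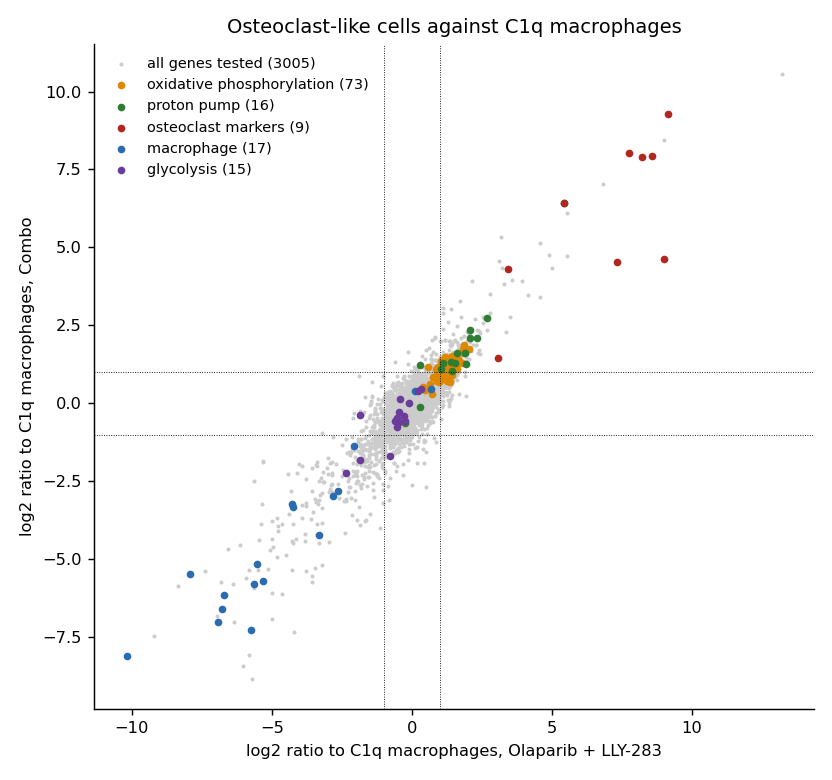
Log2 ratio of CPM in osteoclast-like cells over C1q macrophages in the Olaparib + LLY-283 library (x axis) and the Combo library (y axis) for the 3005 genes tested, with 5 gene lists in color. Dotted lines mark 2-fold. Above both upper lines lie 13 of the 16 pump genes and 40 of the 73 genes of oxidative phosphorylation. Below the lower ones lie 15 of 17 macrophage genes, C1q genes included, and 2 of 15 glycolysis genes, a list with medians of -0.47 and -0.45. Of all 3005 genes, 7.62% lie above both upper lines and 9.55% below both lower ones.

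Transcription factors were taken in 2 lists. Of 26 factors that act in osteoclasts, 12 passed the filter. Of these, 4 were higher and 2 lower, beside 7.62% and 9.55% of all genes tested, with median log2 ratios of -0.22 and 0.18. Nfatc1 is also counted among the markers above, and Nfatc1 and Prdm1 passed the filter through the osteoclast-like cells. The higher ones were Nfatc1, Prdm1, a repressor of macrophage genes (117 and 221 CPM against 3.52 and 10.9), Jdp2, an AP-1 family member (262 and 567 CPM against 37.5 and 49.7), and Fosl2 (239 and 361 CPM against 79.3 and 93). Hif1a (61.2 and 70.8 CPM against 186 and 228) and Rbpj (77.9 and 115 CPM against 232 and 286) were lower. Hif1a missed the call with CPM averaged over cells, at log2 ratios of -0.97 and -0.66 instead of -1.54 and -1.66. Fos, which is needed early in osteoclast formation, stood at 1219 and 1310.1 CPM against 1607 and 1555, and Spi1 at 462 and 516 CPM against 210.2 and 292.

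Of 19 factors that hold back osteoclast formation or mark macrophages, 10 passed the filter. None was higher and 7 were lower, beside 7.62% and 9.55% of all genes tested, with median log2 ratios of -1.83 and -1.64. Some, such as Maf and Irf8, passed the filter through C1q macrophages, where they are high, so the count describes the list only. Maf, which is active in macrophages, had 3 and 17 UMIs, or 16.7 and 37.6 CPM against 294 and 494 (log2 ratios -3.92, from -6.42 to -2.59, and -3.67, from -4.50 to -3.03). Irf8, which represses Nfatc1, had 0 and 5 UMIs against 266 and 971, at least 7.02-fold lower in Olaparib + LLY-283. Also lower were Cebpb (217 and 168 CPM against 712 and 919), Klf4, Egr1 and Nr4a1.

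Macrophage genes were largely missing. Of 18 listed genes 17 passed the filter and 15 were lower, beside 9.55% of all genes tested. Genes high in C1q macrophages pass the filter more easily through those cells, so the count describes the list and supports nothing beyond it. The 18 genes summed to 2744 and 3667 CPM against 28562 and 33596 CPM. The median log2 ratios were -5.30 and -5.16, or -3.32 and -4.69 when genes with no UMI were set at their bound. The C1q genes define the comparison population and are no finding, yet they are among the 15 and within these sums and medians. Lyz2, lysozyme of macrophages and neutrophils, stood at 94.6 and 181 CPM against 10126 and 12781. Mrc1, the mannose receptor, had 0 and 10 UMIs, Adgre1 (F4/80) 0 and 1, and Cd163 none in either library, which made Cd163 at least 8.84-fold and 25.8-fold lower. Apoe was the most abundant gene of the list that remained, at 1197 and 1489 CPM against 5019.6 and 3818, though in Combo it missed the call at a rule of 0.4% (log2 ratio -0.86 instead of -1.36). It was found in 33 of 41 and 18 of 21 cells, and its median per cell was 629 and 2020 CPM. The 2 genes of the list that were not lower were Csf1r and the lysosomal Cd68 (623 and 668 CPM against 387 and 490).

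Lipid and phagocytic genes went mostly the same way. Of 11 that passed the filter 6 were lower, beside 9.55% of all genes tested, among them the cathepsins Ctsb, Ctsd and Ctsl. Ctsb, for instance, stood at 473 and 644 CPM against 2651 and 3237. Spp1, osteopontin, was also lower, at 1475 and 644 CPM against 6066 and 5515. Lpl, lipoprotein lipase, was the 1 higher gene of the 11, near the 7.62% of all genes tested, at 362 and 336 CPM against 40.1 and 8.29. Of 5 class II genes that passed the filter, H2-Ab1, H2-Eb1 and H2-DMa were lower, and Cd74 was uneven, at 813 and 354 CPM against 719 and 935.

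Other cell types left few UMIs. The dendritic markers Flt3, Xcr1, Clec9a and Ccr7, the T cell genes Cd3e and Cd3d, the B cell gene Ms4a1, the endothelial genes Pecam1, Cdh5 and Flt1 and the osteoblast genes Bglap, Ibsp and Sp7 were at 0 UMIs in both libraries. Other genes of those lists had some. The 8 dendritic genes summed to 50.1 and 17.7 CPM, nearly all of it Fscn1. The 9 T and NK genes summed to 11.1 and 2.21 CPM, from single UMIs of Trbc2, Nkg7 and Cd3g, the B cell list to 0 and 4.43 CPM (Cd79b) and the endothelial list to 0 and 2.21 CPM (Egfl7). The 8 osteoblast genes summed to 1592 and 699 CPM, led by Spp1, which macrophages share. The 10 fibroblast genes summed to 957 and 332 CPM, below the 1510.3 and 737 CPM of C1q macrophages and the 3037 and 2976 CPM of all other cells, with Col1a2 the most abundant and Lum at 0 and 1 UMI. The 5 keratin and epithelial genes of the tumor cells summed to 234 and 84.1 CPM against 877 and 814 CPM in all other cells. Krt8 was the most abundant and Epcam had 0 and 1 UMI. The 8 neutrophil genes summed to 267 and 531 CPM, led by S100a9, with Csf3r at 0 and 4 UMIs and Cxcr2 at 0 and 5. The part of these transcripts in the values above was not tested. Of the 62 cells, 22 and 8 had no keratin UMI at all, and 4 and 16 had any C1q UMI.

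**Figure D4:**
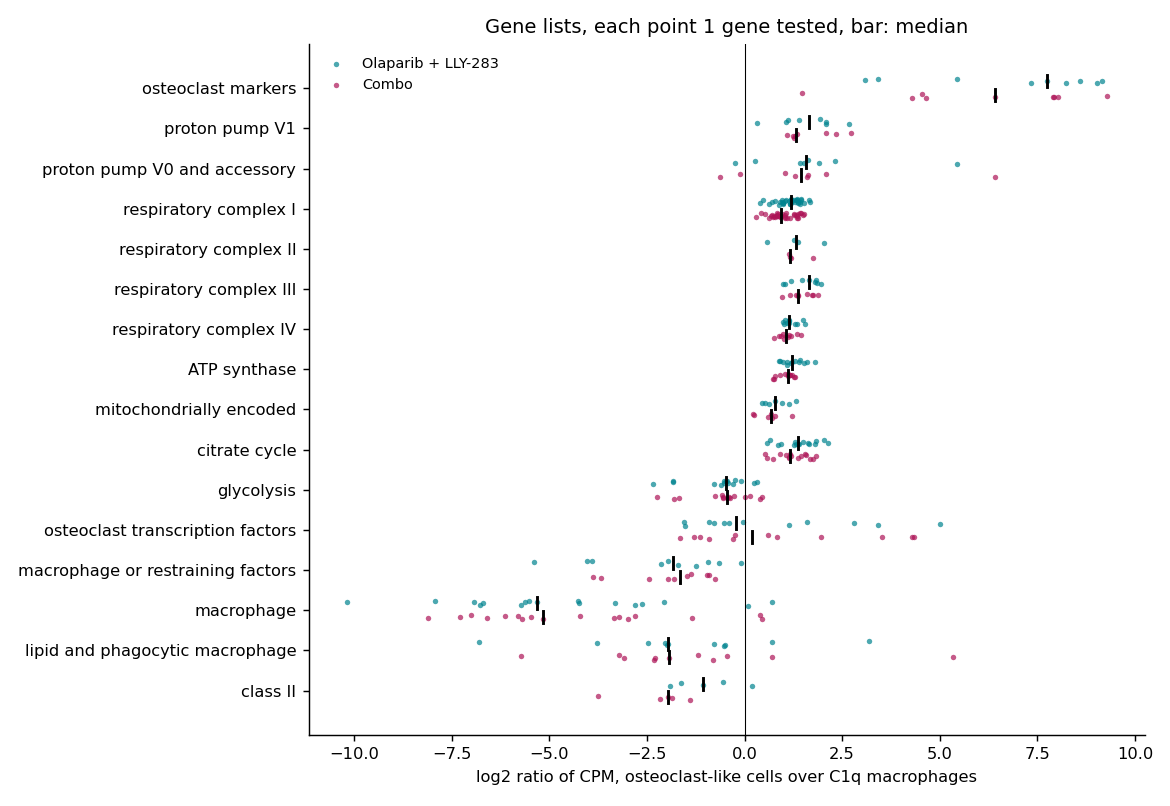
Log2 ratio of CPM in osteoclast-like cells over C1q macrophages (x axis) for each gene tested of 16 lists (rows), in Olaparib + LLY-283 (teal) and Combo (magenta); black bars are medians. Medians run from 7.74 and 6.41 for osteoclast markers, through 1.66 and 1.32 for proton pump V1 and -0.47 and -0.45 for glycolysis, to -5.30 and -5.16 for macrophage genes, C1q genes included.

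Ranked over all genes tested, by the library with the ratio nearer 0, the 15 highest genes against C1q macrophages were Mt3, Ctsk, Slc9b2, Ocstamp, Mmp9, Acp5, Kbtbd11, Bdh2, Atp6v0d2, Pheta1, Nudt22, Dcstamp, Grk3, Car2 and Prdm1. Acp5 and Ctsk are among them by the rule. Of the other 13, 5 are in the osteoclast marker list and Prdm1 is in another. Mt3 (chr8:94152607-94154146, plus strand), a metal-binding metallothionein best known from brain, led the ranking. It had 375 and 688 UMIs, or 2088 and 1523 CPM, and none and 5 UMIs in C1q macrophages, which made it at least 1579-fold higher in Olaparib + LLY-283 and 1504-fold in Combo. It was uneven between cells, detected in 21 of 41 and 12 of 21, and at 1000 UMIs in 43.3% and 53.9%. Where present it was abundant, up to 9466 and 5181 CPM in 1 cell, and the median cell had 215 and 925 CPM.

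Slc9b2, a sodium and proton exchanger that osteoclasts make as they form, stood at 790.5 and 1058 CPM and had 3 and 16 UMIs in C1q macrophages, with log2 ratios of 9.01 (7.65 to 11.52) and 8.45 (7.77 to 9.31). It was found in 29 of 41 and 18 of 21 cells. Kbtbd11, a kelch-repeat protein, had 31 and 126 UMIs (173 and 279 CPM) against 3 and 11, with log2 ratios of 6.83 (5.35 to 9.38) and 7.05 (6.22 to 8.14). Bdh2, a cytosolic hydroxybutyrate dehydrogenase, stood at 334 and 345 CPM against 7.05 and 4.97, Nudt22 at 356 and 289.9 CPM against 7.49 and 10.9, and Pheta1, of endosomal traffic, at 122 and 122 CPM against 3.97 and 4.42. Grk3, a kinase of G protein-coupled receptors, stood at 117 and 250.1 CPM against 4.85 and 7.

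The 10 lowest genes were C1qa, C1qb, C1qc, Ccl8, Ccl2, Ccl12, Ccl7, Lyz2, Cbr2 and Hal, 4 of which are chemokines that draw monocytes. Ccl8 had 0 and 2 UMIs in osteoclast-like cells and 1625 and 963 CPM in C1q macrophages, at least 97.3-fold lower in Olaparib + LLY-283. Ccl2 had 1 and 4 UMIs against 1039.8 and 1120.2 CPM, with log2 ratios of -6.96 (-12.85 to -5.07) and -6.81 (-8.86 to -5.63). Cbr2 and Hal had no UMI in either library.

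Against all other cells that passed the filter, 2945 genes were tested, 345 (11.7%) were higher and 259 (8.79%) lower. All 9 osteoclast markers that passed were higher again, as were 15 of 16 proton pump genes and 34 of 73 genes of oxidative phosphorylation, while no gene of glycolysis was higher and Slc2a1 and Slc16a3 were lower. Mt3 stood at 0.796 and 1.10 CPM in those cells and Slc9b2 at 0.646 and 0.94 CPM. Of the macrophage list, C1qa and Lyz2 were lower even against this mixture, and Apoe, Cd68 and Csf1r were higher. The fibroblast genes Col1a1, Col1a2, Col3a1 and Dcn were lower.

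Cells that met the threshold for only 1 rule gene numbered 16 and 4 for Acp5, and 8 and 0 for Ctsk. For the 10 osteoclast markers outside the rule, the Acp5 cells summed to 829 and 3042 CPM and the 8 Ctsk cells of Olaparib + LLY-283 to 4517 CPM, with 7537 and 7531 CPM in the members. At least 3 of these markers were found in 4 of the 16 and 2 of the 4 Acp5 cells and in 1 of the 8 Ctsk cells. The sum of the Ctsk cells was mostly Mmp9, at 3566 CPM. Proton pump genes summed to 7179 and 10697 CPM in the Acp5 cells and to 5527 CPM in the Ctsk cells, against 13978 and 14329 CPM in the members. For the V1 genes alone in Combo, the Acp5 cells were not lower, at 5616 CPM against 5347 CPM. Genes of oxidative phosphorylation summed to 35247 and 50308 CPM in the Acp5 cells and 21691 CPM in the Ctsk cells, against 53625 and 47820 CPM in the members, so that in Combo the Acp5 cells were not lower. Nor were they for the citrate cycle in Combo, at 3911 CPM against 3764 CPM, where Olaparib + LLY-283 had 2255 against 3925 CPM. Macrophage genes summed to 2955 and 1705 CPM in the Acp5 cells and 5170.3 CPM in the Ctsk cells. The members had 2744 and 3667 CPM of them, close to the Acp5 cells in Olaparib + LLY-283 and higher in Combo. The Ctsk cells also had 22999 CPM of lipid and phagocytic genes, 6418 CPM of neutrophil genes and 2555 CPM of fibroblast genes. These sums stand on few cells.

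The spread among the members is described by the rule genes themselves, with no test. The members of each library were divided at their median share of both rule genes, 2.21% in Olaparib + LLY-283 and 2.42% in Combo, after the values had been seen. Median depth on the 2 sides was 3132 and 3101 UMIs, and 28418.5 and 18532 UMIs. Mmp9 stood at 2486 CPM in the 20 lower and 6962 CPM in the 21 higher cells of Olaparib + LLY-283, and at 1883 and 9593 CPM in the 10 lower and 11 higher cells of Combo. Between the same sides, Mt3 went from 829 to 3717 CPM and from 155 to 3442 CPM, Slc9b2 from 345 to 1367 and from 659 to 1617 CPM, and Ckb from 769.6 to 2529 and from 250.1 to 1452 CPM. In Olaparib + LLY-283, however, 1 cell held 125 of the 198 Ckb UMIs of the higher side, so that step rests largely on it. The macrophage genes summed to 1727 and 4062 CPM and to 2660 and 5081 CPM, also more on the higher side. Nfatc1, at 207 and 307 CPM in Olaparib + LLY-283 and 637 and 495 CPM in Combo, and Dcstamp, at 148 and 63.9 CPM and at 41.7 and 165 CPM, had no common direction.

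The 15 proliferation genes summed to 1223 CPM in the lower and 498 CPM in the higher cells of Olaparib + LLY-283, and to 1538 and 303 CPM in Combo. Mki67 had 7 UMIs in the lower and 4 in the higher cells of Olaparib + LLY-283, and 48 and 2 in Combo. Of those 48 UMIs, 45 came from 2 cells, with 27 and 18, and 6 of the 10 lower cells had none. Over all members, a UMI of Mki67 or Top2a was found in 11 of 41 (26.8%) and 11 of 21 (52.4%) cells, as against 25.1% and 50.1% of C1q macrophages. None of the 6 proliferation genes that passed the filter was called. The fibroblast genes summed to 1431 CPM in the lower and 345 CPM in the higher cells of Olaparib + LLY-283 but to 296 and 383 CPM in Combo. Among the lower cells of Olaparib + LLY-283, a single cell with 27379 UMIs held 50 Col1a2 and 12 Col1a1 UMIs.

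**Figure D5:**
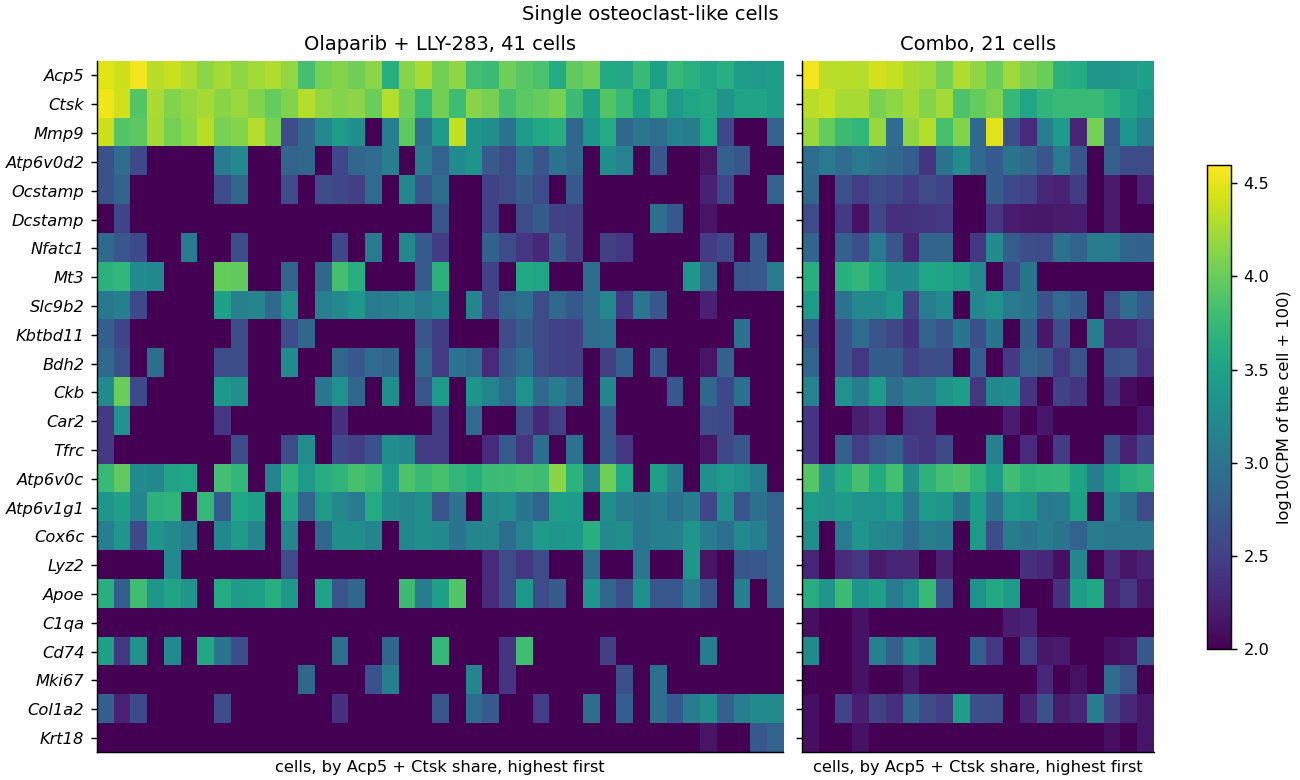
Level of 24 genes (rows) in each of the 41 and 21 osteoclast-like cells (columns), ordered from the highest to the lowest share of Acp5 and Ctsk. Color is log10 of the cell's CPM plus 100. Mmp9 is bright in most of the leftmost cells of Olaparib + LLY-283 and Col1a2 in its rightmost, Mki67 appears in scattered cells, and C1qa is dark in every Olaparib + LLY-283 cell.

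A pair of members held many of the UMIs of fibroblast, macrophage and neutrophil genes. In Olaparib + LLY-283, 1 cell with 27379 UMIs, the deepest there, had 0.325% Acp5 and 0.376% Ctsk, together with 50 of the 87 Col1a2 UMIs of all members, 12 of 20 Col1a1 UMIs, 17 of 20 Cthrc1 UMIs and 96 Spp1 UMIs. In Combo, 1 cell with 32704 UMIs had 0.388% Acp5 and 0.557% Ctsk, with 49 of 82 Lyz2 UMIs, 24 of 36 Cd14 UMIs and 58 of 115 S100a9 UMIs. Without both cells, 253 genes were higher and 306 lower than in C1q macrophages, and every osteoclast marker that had been called stayed higher, Mmp9 with a log2 ratio of 8.30 in Olaparib + LLY-283. Among listed genes 14 changed their call, of which Uqcrb lost it, 9 became higher, and Col1a2, Col3a1, Cthrc1 and the interferon gene Rsad2 became lower.

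Combo and Olaparib + LLY-283 were compared in the same cells, with no replicate check. Of 2849 genes with a mean level of at least 50 CPM over both libraries, 97 (3.4%) were at least 2-fold higher in Combo and 114 (4%) at least 2-fold lower. Acp5 stood at 11000 and 12711 CPM, Ctsk at 10438 and 9655 CPM, Mmp9 at 4437 and 5089.8 CPM and Atp6v0d2 at 557 and 648 CPM, each within 2-fold. No gene of the respiratory chain or citrate cycle was 2-fold apart, and 1 proton pump gene was, Atp6v1h. Its log2 ratio of 1.03 fell to 0.82 without the pair of cells described above, which ended the call. Of 217 listed genes tested, 10 (4.61%) were higher in Combo and 14 (6.45%) lower. Without the 2 cells described above, 6 of the 10 and 6 of the 14 were still 2-fold apart.

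Nfatc1 was among the 10, at 251 CPM (183 to 335) in Olaparib + LLY-283 and 578 CPM (509.6 to 652) in Combo, a log2 ratio of 1.19 (0.74 to 1.70) against 0.32 in C1q macrophages. Pdgfa, a growth factor for mesenchymal cells, went from 184 CPM (126 to 258) to 613 CPM (543 to 689.6), a log2 ratio of 1.72 against 0.12. Pdgfb, Adam8 and Pfkp also stayed higher. Jdp2 was 2-fold higher with all cells (log2 ratio 1.10) and just under it without the pair (0.99). Car2 was lower in Combo, at a log2 ratio of -2.76, and Ckb at -1.03, with 0.02 and 0.58 in C1q macrophages. In Olaparib + LLY-283, however, 1 cell held 54.5% of the Car2 UMIs and 45.3% of the Ckb UMIs. The fibroblast genes Col1a1, Col1a2 and Col3a1 were also lower in Combo, and none of them stayed 2-fold lower without the pair. In C1q macrophages their log2 ratios were -1.06, -0.91 and -1.26. Cthrc1 and Cd14 even changed sign, from -1.64 to 0.78 and from 1.16 to -0.28.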

How the data were processed

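Tumors of 3 mice were pooled into 1 library per group, and the 10x Genomics 3′ libraries were sequenced by the authors. They deposited 1 matrix of UMI counts per gene and cell for each library, without normalization, aligned to mm10. Cell Ranger is given as version 7.0.0 in the study's methods and as 6.1.2 in the matrix headers, and the submitters' processing notes list Seurat 4.1.0 and bcl2fastq 5.0.1. The deposited matrices held 16115 cells and 147214934 UMIs for Olaparib + LLY-283 and 7542 cells and 162522700 UMIs for Combo. At or above 20% mitochondrial UMIs, 86 and 1586 cells were left out. Gene positions were taken from GENCODE M21 and promoter windows from RefSeq (GRCm38.p6).

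UMIs were summed over cells and scaled to CPM. Ratios had 0.5 UMIs added to each count, and called genes had to be at least 2-fold apart, in both libraries where populations were compared, with a mean level of at least 50 CPM. With 1 library per group no test across samples was possible, and intervals (Poisson, Clopper-Pearson and exact conditional, at 95%) cover counting error only. Shares at 1000 UMIs are the exact expectation under sampling without replacement. A count of 0 was bounded by 3 UMIs over the population. Named genes are those of the marker and pathway lists, and the 15 highest and 10 lowest ratios to C1q macrophages, with ribosomal protein genes and unnamed gene models left out. The members and all lists were chosen with earlier results of these data known. Scrublet (scanpy 1.11.5), run on each library with log-transformed counts, called 2364 (14.7%) and 47 (0.789%) cells doublets. Without the transformation it called none. Doublets were kept, and removing them was 1 of the alternatives. Other alternatives changed the thresholds of the rule, the cell filter, the filter on level, the scaling and the added count. The ratios and calls were run on simulated counts with known changes. These were drawn from the summed C1q macrophages with no variation between cells, so they do not show how calls behave with few uneven cells. Some listed genes are not reported here by name. Tables were handled with pandas 2.3.3 in Python 3.11.15, intervals came from scipy 1.17.1 with numpy 2.4.6, and figures were drawn with matplotlib 3.10.9.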

Additional observations from a re-analysis of the deposited data

How the results depend on the processing

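The number of osteoclast-like cells ran from 28 to 55 in Olaparib + LLY-283 and from 15 to 24 in Combo, at thresholds of 0.4% and 0.1%. Removing called doublets left 35 and 20, and removing cells with at least 0.1% keratin left 39 and 20. Counts of genes depended most on the filter and the fold. At a mean of at least 20 CPM, 378 genes were higher and 528 lower than in C1q macrophages, 670 higher and 528 lower than in all other cells, and 344 higher and 439 lower in Combo. With no filter these became 5630 and 1021, 17455 and 1074, and 1431 and 2279. At 4-fold they became 45 and 125, 140 and 40, and 8 and 13. Between the libraries, averaging CPM over cells gave 295 genes higher and 308 lower in Combo. Totals without mitochondrial and ribosomal genes gave 157 higher, and 2 added UMIs gave 62 higher. The filter, the fold and the added count change such counts by construction, and for the averages and totals the cause was not tested. Of 1040 values of 40 called named genes under the alternatives, all kept their sign and 1036 stayed at least 2-fold. The other 4 were Apoe in Combo (-0.86 at 0.4%) and, averaged over cells, Hif1a (-0.97 and -0.66) and Tnfrsf11a in Combo (0.98). By a closer measure, 1411 values of list medians, named gene ratios and shares of cells stayed within a set range and 239 moved out of it. That range was the counting interval for a ratio or share, and the spread between the 2 libraries for a list median. Depth limited the Olaparib + LLY-283 values, where 3 UMIs were 16.7 CPM, and the ratios of genes with 1 to 3 UMIs have wide intervals. No paired analysis was possible because each group has 1 library, and for the same reason no replicate could be left out.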

Other observations

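Genes by which osteoclasts act on bone-forming cells were looked at as a list of 11 coupling factors, of which 4 passed the filter against C1q macrophages. Sema4d, a semaphorin that holds back osteoblasts, was higher, at 89.1 and 117 CPM in Olaparib + LLY-283 and Combo against 22.9 and 24.3 CPM. Pdgfa was higher too, at 184 and 613 CPM against 69.6 and 76.1 CPM, and Tgfb1 was lower, at 39 and 70.8 CPM against 141 and 182 CPM. Bmp6, Slit3 and Wnt10b had no UMI. In the list of complement and checkpoint genes of myeloid cells, C5ar1, the receptor of the complement fragment C5a, had 1 and 4 UMIs against 333 and 1111 in C1q macrophages. Cd274, which encodes PD-L1, had 1 and 2 UMIs and Siglec15, a lectin of osteoclasts, 1 and 4, at or near the floor of 3 UMIs. None of the 4 interferon-stimulated genes that passed the filter, of 15 listed, was 2-fold apart in both libraries, and Bst2, the most abundant, stood at 367 and 272 CPM against 370.1 and 319 CPM.

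Bdh2 (chr3:135281221-135304426) and Slc9b2 (chr3:135307700-135345387), both among the 15 highest genes, are neighbors on the plus strand of mm10, 3273 bases apart with no annotated gene between them. Bdh2 was found in 25 of 41 and 17 of 21 osteoclast-like cells and Slc9b2 in 29 and 18. The pair was noticed after the ranking had been seen, and reads that pass from the end of Bdh2 into Slc9b2 were not examined.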
